A study of Mus musculus with 8 samples.

Results

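The Hox genes, which encode homeodomain transcription factors, were examined in mouse embryoid bodies across all 4 clusters. The 39 names looked up were 38 Hox genes and Hoxb5os, a transcript annotated on the strand opposite Hoxb5. Probe sets that the platform annotation pairs with 1 of these names alone were found for 34 of them, 49 probe sets among the 45037 non-control probe sets of the array, which name 18193 genes singly. Hoxa6, Hoxc11 and Hoxc12 had no such probe set, and Hoxb8 and Hoxd4 were named only by probe sets shared with a neighbouring gene.

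Embryoid bodies are the aggregates that embryonic stem cells form in suspension. Embryoid bodies of 1 group received 500 nM retinoic acid together with 1 μM of an Hh agonist (HH-Ag, 4 samples), and those of the other received 500 nM retinoic acid alone (4 samples). All had been kept in suspension for 2 days before treatment in DFNB medium. The labels give the line as YFP3.1 cells that constitutively express Gli1FLAG, a tagged form of the Hedgehog-pathway transcription factor Gli1, in both groups, and collection at 3 days of differentiation, except that replicate 7 of the agonist group carries neither entry. The design calls the samples biological replicates but does not describe their cultures, and each p-value therefore rests on sample-to-sample spread that may be technical. Total RNA of each sample was hybridised to 1 Mouse430_2 array, and the deposited values are linear intensities. Array medians lay between 21.6 and 22.6. Precision is limited by having 4 arrays in a group.

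Hox genes lie in clusters in which genes at the same relative position form a paralog group, numbered 1 to 13. Low-numbered genes, at the 3′ end, are switched on first and act in the hindbrain and neck, and high-numbered genes act progressively further toward the tail. Retinoic acid is a classical inducer of the 3′ genes, several of which are regulated through retinoic acid response elements, and Hedgehog signalling is known for patterning the neural tube along its dorsoventral axis instead. The comparison asks which Hox genes differ when the Hh agonist is added during retinoic acid treatment.

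With the agonist, Hoxb4, Hoxb5 and Hoxd3 were higher and Hoxb5os was lower, while no tested probe set of the HoxA or HoxC cluster passed. Those clusters had 8 tested probe sets each, and at the share called among all tested probe sets (1.87%) 8 would often hold no call. In whole embryoid bodies, a change in the number of cells of a type and a change in RNA per cell cannot be told apart. Of the 49 probe sets, 28 (from 21 names) had a mean log2(intensity + 16) over all arrays above the filter, an intensity of about 15.1, and were tested. Among these, 4 rose and 1 fell at a limma adjusted p under 0.05, against 1.14% higher and 0.733% lower (1.87% in either direction) among all 27022 tested probe sets. Over all of them the split was 308 higher to 198 lower, and 278 to 281 with each array centred on its median, where the same count of 4 and 1 members was called. By the brightest probe set of each name, 3 of 21 rose and 1 fell, where 1.31% rose and 0.87% fell (2.18% in either direction) among 13675 genes. Without the filter, 5 of the 49 were called, against 1.04% of all 45037 probe sets. The median log2 fold change of the 28 probe sets was 0.016, and that of all tested probe sets was -0.0047. Of the 28 changes 15 were above 0 and 13 below. The groups of 4 arrays did not overlap for 8 of the 28, against 7.06% of all tested probe sets.

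**Figure D1:**
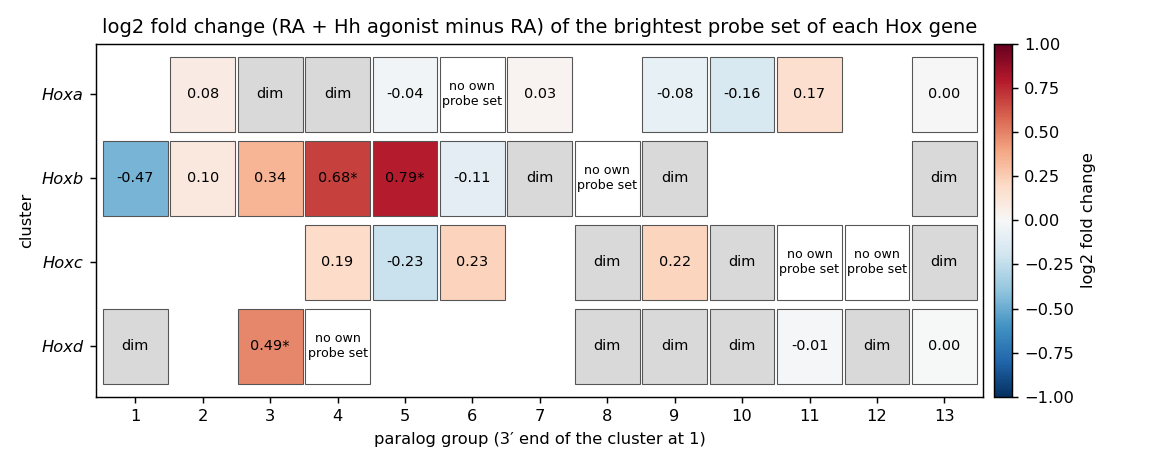
Log2 fold change (agonist plus retinoic acid minus retinoic acid alone) of the brightest probe set of each Hox gene, with clusters as rows and paralog groups as columns. An asterisk marks an adjusted p under 0.05, "dim" a probe set below the filter and "no own probe set" a gene without a single-gene probe set. The coloured cells with asterisks are Hoxb4 (0.68), Hoxb5 (0.79) and Hoxd3 (0.49), and Hoxb1 is the cell with the lowest value (-0.47).

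The promoters of the called genes Hoxb4 and Hoxd3, and of Hoxb1, which had the most negative change of any member apart from Hoxb5os, are shown because these genes sit at the 3′ and middle positions where the values below differ. Each is 300 bases from RefSeq (GRCm38.p6, 5′ to 3′ on the plus strand), running from 250 bases before to 50 bases after the annotated start. Capitals mark AGGTCA on either strand (a word bound by retinoic acid receptors) or TGATNNAT on either strand (a word bound by Pbx with Hox proteins). The windows are chr11:96318017-96318316 for Hoxb4, chr2:74711743-74712042 for Hoxd3 and chr11:96365508-96365807 for Hoxb1.
Hoxb4: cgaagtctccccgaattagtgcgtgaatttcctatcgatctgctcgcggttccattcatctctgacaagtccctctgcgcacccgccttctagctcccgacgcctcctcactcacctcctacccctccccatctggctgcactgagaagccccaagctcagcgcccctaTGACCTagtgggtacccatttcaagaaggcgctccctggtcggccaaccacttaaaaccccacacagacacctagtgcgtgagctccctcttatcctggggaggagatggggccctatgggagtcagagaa
Hoxd3: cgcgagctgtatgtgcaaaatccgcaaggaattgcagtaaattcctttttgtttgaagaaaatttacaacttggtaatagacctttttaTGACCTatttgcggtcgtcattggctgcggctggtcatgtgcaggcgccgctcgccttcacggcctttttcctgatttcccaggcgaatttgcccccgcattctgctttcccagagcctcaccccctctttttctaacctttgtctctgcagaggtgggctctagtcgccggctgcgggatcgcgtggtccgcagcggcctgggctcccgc
Hoxb1: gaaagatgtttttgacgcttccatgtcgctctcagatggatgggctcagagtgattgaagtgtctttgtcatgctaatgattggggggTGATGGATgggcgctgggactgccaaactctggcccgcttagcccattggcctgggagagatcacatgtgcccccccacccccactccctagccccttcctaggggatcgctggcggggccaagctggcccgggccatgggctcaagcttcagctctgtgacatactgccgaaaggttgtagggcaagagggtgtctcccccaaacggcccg
A promoter was found in the RefSeq table for 22 of the 39 names (24 windows), and for neither Hoxb5 nor Hoxb5os. Hoxb4 and Hoxd3 each held 1 receptor word, at positions -81 and -161 from the start, and Hoxb1 held 1 Pbx-Hox word at position -162. The receptor word occurred in 7 of the 24 windows and in 16.3% of all 32851 promoters of that length. Besides Hoxb4 and Hoxd3, the genes holding it were Hoxa5, Hoxc4, Hoxd4, Hoxd8 and Hoxd10, none of them called. The Pbx-Hox word occurred in 4 of 24 and in 8.85%. A direct repeat of the receptor word spaced by 2 or by 5 bases (AGGTCANNAGGTCA, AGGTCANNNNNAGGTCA) was in none of the 24, and each was in 0.00913% of all promoters. The Gli word GACCACCCA was likewise in none of the 24 and in 0.253% of all promoters. At shares this low 24 windows would rarely hold a match, so none was the likely outcome in advance. Sequence outside the windows was not searched. These words overlap by construction, since each repeat contains the receptor word, and a match or its lack says nothing of whether a factor binds. The motif words were chosen with these results known.

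Hoxb4, a gene of the posterior hindbrain and neck, was measured by 2 probe sets and both rose. On the brighter one the intensities were 181, 187, 182 and 190 with the agonist, against 84.5, 120, 110 and 126 with retinoic acid alone. The agonist arrays lay close together and all above the retinoic acid arrays, among which replicate 1 was lowest. The mean was 185 ± 4.08 with the agonist and 110 ± 18.4 with retinoic acid (SD, n = 4 each), which on the log2 scale was 0.68 higher (SE 0.098, limma adjusted p = 0.000429). On the dimmer one the values were 144, 109, 129 and 136 with the agonist and 87.5, 98.1, 96.3 and 96.9 with retinoic acid alone. These groups also did not overlap, agonist replicate 6 lying nearest the retinoic acid arrays. Its log2 fold change was 0.39 (SE 0.090, limma adjusted p = 0.0289), a call that was lost on leaving out agonist replicate 5, 7 or 8, or retinoic acid replicate 1 or 2 (adjusted p of 0.0579 to 0.116), without the intensity trend (0.101) and on the second hybridisation day alone (0.264). The log2 fold change of the brighter one kept an adjusted p of 0.0107 or less in all 18 alternatives run.

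Hoxb5, which acts in the posterior hindbrain and in the neural crest of the gut, was dim with retinoic acid alone. Its only single-gene probe set gave 46.4, 43.9, 43.9 and 36.9 with the agonist and 15.6, 18.5, 19.3 and 18.7 with retinoic acid alone. Every agonist array was well above every retinoic acid array. The mean was 42.8 ± 4.11 with the agonist against 18.0 ± 1.65 with retinoic acid, a ratio of 2.37 in plain intensity. On the log2(intensity + 16) scale, which understates the change of a gene this dim, the fold change was 0.79 (SE 0.11, limma adjusted p = 0.000421). With 1 added to the intensities it was 1.20, and with 64 added it was 0.38.

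Hoxb5os is annotated on the opposite strand, and its annotated span encloses the whole of Hoxb5 and Hoxb6. Its probe set gave 66.6, 62.9, 57.1 and 69.1 with the agonist and 221, 152, 300.2 and 173 with retinoic acid alone. The agonist arrays formed a narrow band below all retinoic acid arrays, which were themselves spread, with replicate 3 highest. The mean was 63.9 ± 5.21 with the agonist against 212 ± 65.7 with retinoic acid, and the log2 fold change was -1.47 (SE 0.14, limma adjusted p = 4.20e-06). A change of that size or larger was seen in 0.107% of all tested probe sets. Without retinoic acid replicate 3 the change was -1.30 (adjusted p = 2.03e-06). Because the genes overlap, which transcripts each probe set detects was not tested.

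Hoxb5 and its opposite-strand transcript thus moved in opposite directions. The change of Hoxb5 exceeded that of Hoxb5os by 2.26 on the log2 scale (exact permutation test over 4 against 4 arrays, two-sided p = 0.0286, the smallest this design allows). Since each probe set alone already separated the groups, in opposite directions, the test had to reach that p. It adds nothing to the separate results, and its p adjusted over the 13 pairs given below was 0.0619. The difference of the changes was 1.46 with 64 added to the intensities and 2.87 with 1 added. Hoxb6, which lies within the same span, had 92.2 ± 16.6 with the agonist and 100.2 ± 15.7 with retinoic acid (log2 fold change -0.11, adjusted p = 0.784).

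**Figure D2:**
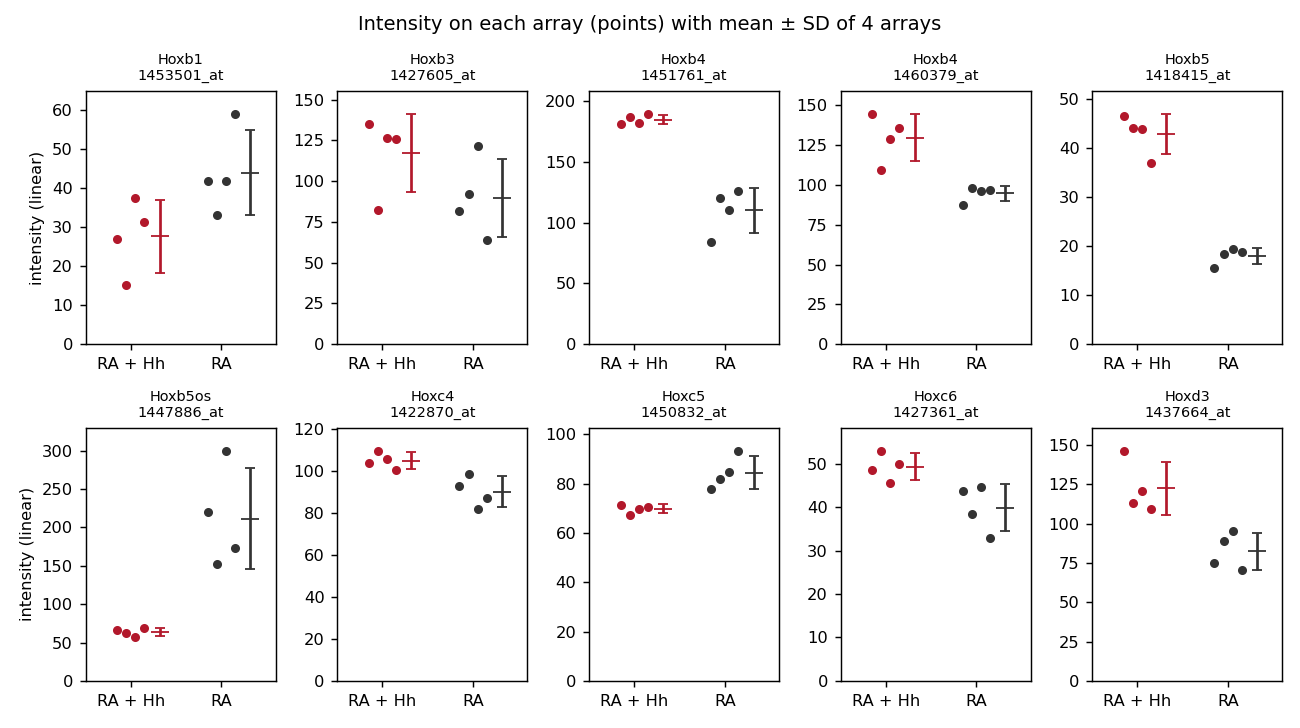
Linear intensity of 10 Hox probe sets on each array (points), with retinoic acid plus agonist left and retinoic acid alone right, and the mean ± SD of 4 arrays beside each group. The groups do not overlap for Hoxb4, Hoxb5, Hoxb5os, Hoxc4, Hoxc5, Hoxc6 and Hoxd3, and overlap for Hoxb1 and Hoxb3.

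At the 3′ end of the HoxB cluster the picture was mixed. Hoxb1, an early retinoic acid target that specifies a segment of the hindbrain, gave 26.9, 15.2, 37.3 and 31.2 with the agonist and 41.8, 33.0, 41.8 and 58.9 with retinoic acid alone. Of the agonist arrays 3 lay below the lowest retinoic acid array, and replicate 7 lay within the range of the retinoic acid arrays. The log2 fold change was -0.47 (SE 0.16, limma adjusted p = 0.195), with the adjusted p between 0.0955 and 0.493 in the alternatives. Hoxb2, a regulator of facial motor neuron development, had 227 ± 7.69 with the agonist against 212 ± 24.4 with retinoic acid (adjusted p = 0.676).

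Hoxb3, active in the posterior hindbrain, was measured by 2 probe sets, neither of which passed. The brighter gave 135, 82.1, 126 and 126 with the agonist and 81.6, 92.2, 121 and 64.1 with retinoic acid alone. Here agonist replicate 6 fell among the retinoic acid arrays, and the other agonist arrays lay above all of them. The log2 fold change was 0.34 (SE 0.15, limma adjusted p = 0.355), which was 0.48 without agonist replicate 6 (adjusted p = 0.150) and 0.48 without retinoic acid replicate 3 (adjusted p = 0.0980). It was 0.22 without retinoic acid replicate 4 (adjusted p = 0.681). The dimmer one had 62.0 ± 1.74 with the agonist and 60.2 ± 3.96 with retinoic acid, a log2 fold change of 0.034.

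In the HoxD cluster, Hoxd3, a paralog of Hoxb3 needed for the first neck vertebra, rose on its only single-gene probe set. Its probe set gave 146, 113, 121 and 109 with the agonist and 75.3, 89.1, 95.6 and 70.2 with retinoic acid alone. All agonist arrays were above all retinoic acid arrays. The mean was 122 ± 16.7 with the agonist against 82.6 ± 11.8 with retinoic acid, 0.49 higher on the log2 scale (SE 0.11, limma adjusted p = 0.0183). The call was lost on leaving out agonist replicate 5, or retinoic acid replicate 1 or 4 (adjusted p of 0.0505 to 0.0739), without the intensity trend (0.0880) and on the second hybridisation day alone (0.188). Neither of the 2 probe sets that name both Hoxd3 and Hoxd4 passed. Their log2 fold changes were 0.17 and -0.33 (limma adjusted p = 0.638 and 0.228). Hoxd1 was below the filter, at 6.31 ± 1.78 with the agonist and 6.85 ± 0.936 with retinoic acid.

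The HoxC cluster had 8 tested probe sets from 4 genes, and none passed. Among all tested probe sets 1.87% were called, a share at which 8 would often hold no call. Hoxc4, the Hoxb4 paralog, gave 104, 109.8, 106 and 100.4 with the agonist and 93.1, 98.8, 82.1 and 87.0 with retinoic acid alone. The groups did not overlap, yet the change of 0.19 on the log2 scale did not pass (SE 0.085, adjusted p = 0.373). Hoxc5, a paralog of Hoxb5, gave 71.4, 67.3, 69.9 and 70.5 with the agonist and 78.0, 82.0, 84.6 and 93.3 with retinoic acid alone on its brightest probe set. Each agonist array lay below each retinoic acid array, and the change of -0.23 on the log2 scale did not pass (SE 0.088, adjusted p = 0.278). Its other 2 probe sets had log2 fold changes of -0.19 and -0.07.

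Hoxc6, which helps specify motor neurons at forelimb level, had its brightest probe set at 48.5, 53.0, 45.6 and 49.9 with the agonist and 43.6, 38.4, 44.6 and 33.0 with retinoic acid alone. These groups did not overlap (log2 fold change 0.23, SE 0.10, adjusted p = 0.388), and the other Hoxc6 probe sets had log2 fold changes of -0.024 and 0.14. Hoxc9, a gene of trunk-level motor neurons, had 67.2 ± 11.5 with the agonist and 56.0 ± 15.8 with retinoic acid (adjusted p = 0.560). In all, 10 of the 28 tested probe sets had an unadjusted p under 0.05, against 12.2% of all tested probe sets, and 5 of these did not pass after adjustment.

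The HoxA cluster likewise had 8 tested probe sets, from 7 genes, with log2 fold changes from -0.27 to 0.17. None was called, against 1.87% of all tested probe sets, a share at which 8 would often hold no call. Hoxa2, which patterns the second pharyngeal arch and hindbrain, had 48.1 ± 11.5 with the agonist and 44.1 ± 3.79 with retinoic acid. Hoxa5, a paralog of Hoxb5 that acts in the neck and lung, had 120 ± 12.2 with the agonist against 123 ± 11.8 with retinoic acid on its brighter probe set and 47.3 ± 11.5 with the agonist against 60.2 ± 11.4 with retinoic acid on the dimmer one (adjusted p = 0.925 and 0.420). Neither probe set separated the groups. Hoxa7, a gene of the trunk, had 156 ± 12.9 with the agonist and 153 ± 11.3 with retinoic acid (adjusted p = 0.935). Hoxa9, Hoxa10 and Hoxa11, genes of the lower trunk and limbs, had log2 fold changes of -0.078, -0.16 and 0.17, with adjusted p of 0.716 or more.

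**Figure D3:**
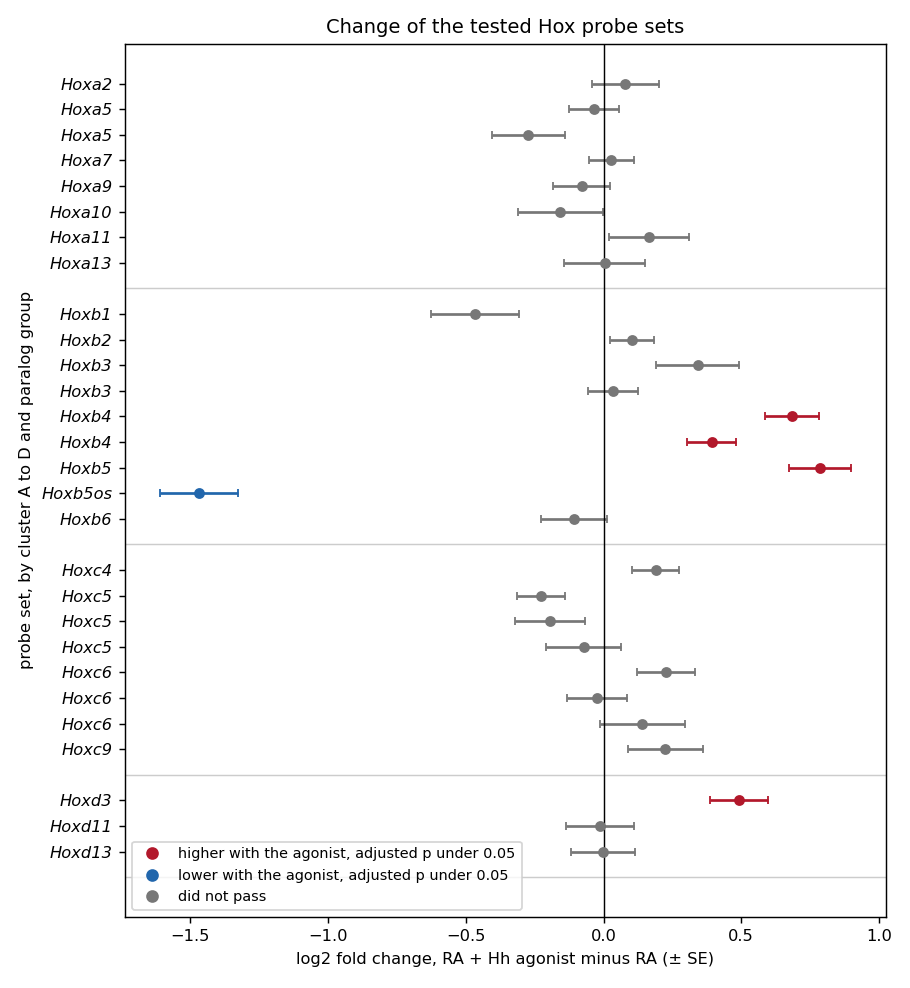
Log2 fold change (agonist plus retinoic acid minus retinoic acid alone, ± SE) of the 28 tested Hox probe sets, from cluster A at the top to cluster D at the bottom and by paralog group within each. The 5 called probe sets are Hoxb4 (0.68 and 0.39), Hoxb5 (0.79), Hoxb5os (-1.47) and Hoxd3 (0.49).

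Read by position, the calls fell in paralog groups 3 to 5, and came from 3 Hox genes, Hoxb4 by 2 probe sets, and from Hoxb5os. Of 16 tested probe sets of groups 1 to 5, 4 rose and 1 fell. Of 12 tested in groups 6 to 13 none passed, and the smallest adjusted p was 0.388. Among all tested probe sets 1.87% were called, a share at which 12 probe sets would often hold no call. The log2 fold changes of those 12 ran from -0.16 to 0.23. Whether the 2 ranges differ as sets was not tested. The filter left 12 of 26 probe sets in groups 6 to 13 and 16 of 23 in groups 1 to 5, and none of 3 in group 8. The 21 below the filter were all those of 13 genes (Hoxa3, Hoxa4, Hoxb7, Hoxb9, Hoxb13, Hoxc8, Hoxc10, Hoxc13, Hoxd1, Hoxd8, Hoxd9, Hoxd10 and Hoxd12) and the dimmer ones of Hoxa9, Hoxa10 and Hoxd13. The members at the tail end that were tested, Hoxa13 and Hoxd13, which act in the digits and genital tubercle, had log2 fold changes of 0.0040 and -0.00084, and Hoxd11 had -0.013. These probe sets were dim, and log2(intensity + 16) understates changes at such intensities. Means with the agonist and with retinoic acid alone were 18.8 and 18.3 for Hoxa13, 30.7 and 30.8 for Hoxd13, and 27.8 and 28.4 for Hoxd11.

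Paralogs were compared directly, since they share a position. Hoxb5os, an opposite-strand transcript and not a paralog, was counted with group 5. For every pair of tested names within a paralog group, 13 pairs in all, the difference of the 2 changes was tested by an exact permutation test over 4 against 4 arrays (two-sided). Hoxb4 exceeded Hoxc4 in its change by 0.49 on the log2 scale (SE 0.13, exact p = 0.0286). Hoxb5 exceeded Hoxc5 by 1.01 (SE 0.065, exact p = 0.0286). Those 2 probe sets each already separated the groups, in opposite directions, so the test had to reach that p. The change of Hoxa5 minus that of Hoxb5 was -0.82 (SE 0.13, exact p = 0.0286). Hoxb3 and Hoxd3 differed by -0.15 (SE 0.15, exact p = 0.4). In 6 pairs the p was at the smallest value possible. All 6 came to 0.0619 after Benjamini-Hochberg adjustment over the 13 pairs, so no pair passed. Because p cannot go lower with 4 against 4 arrays, 6 such pairs could not have passed. The lack of a pass therefore does not show that paralogs changed alike. Of these 6 pairs, 3 contain Hoxb5os and so do not compare paralogs.

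The arrays were hybridised on 2 days, with 1 array of each group on the first day and 3 of each on the second. The first-day arrays came from 1 chip lot and the second-day arrays from another, so day and lot cannot be told apart. On the first day both arrays ran on fluidics station 1, while on the second the agonist arrays ran on station 2 and the retinoic acid arrays on station 1, so station and group cannot be told apart on that day. The first-day pair, agonist replicate 5 minus retinoic acid replicate 1, differed by 0.97 for the brighter Hoxb4 probe set, 0.98 for Hoxb5, 0.83 for Hoxd3 and -1.52 for Hoxb5os on the log2 scale. Among the second-day arrays alone the log2 fold changes were 0.59 for that Hoxb4 probe set (adjusted p = 0.00273), 0.72 for Hoxb5 (0.00838), 0.38 for Hoxd3 (0.188) and -1.45 for Hoxb5os (0.000116). With the day as a block, the same 5 probe sets were called.

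**Figure D4:**
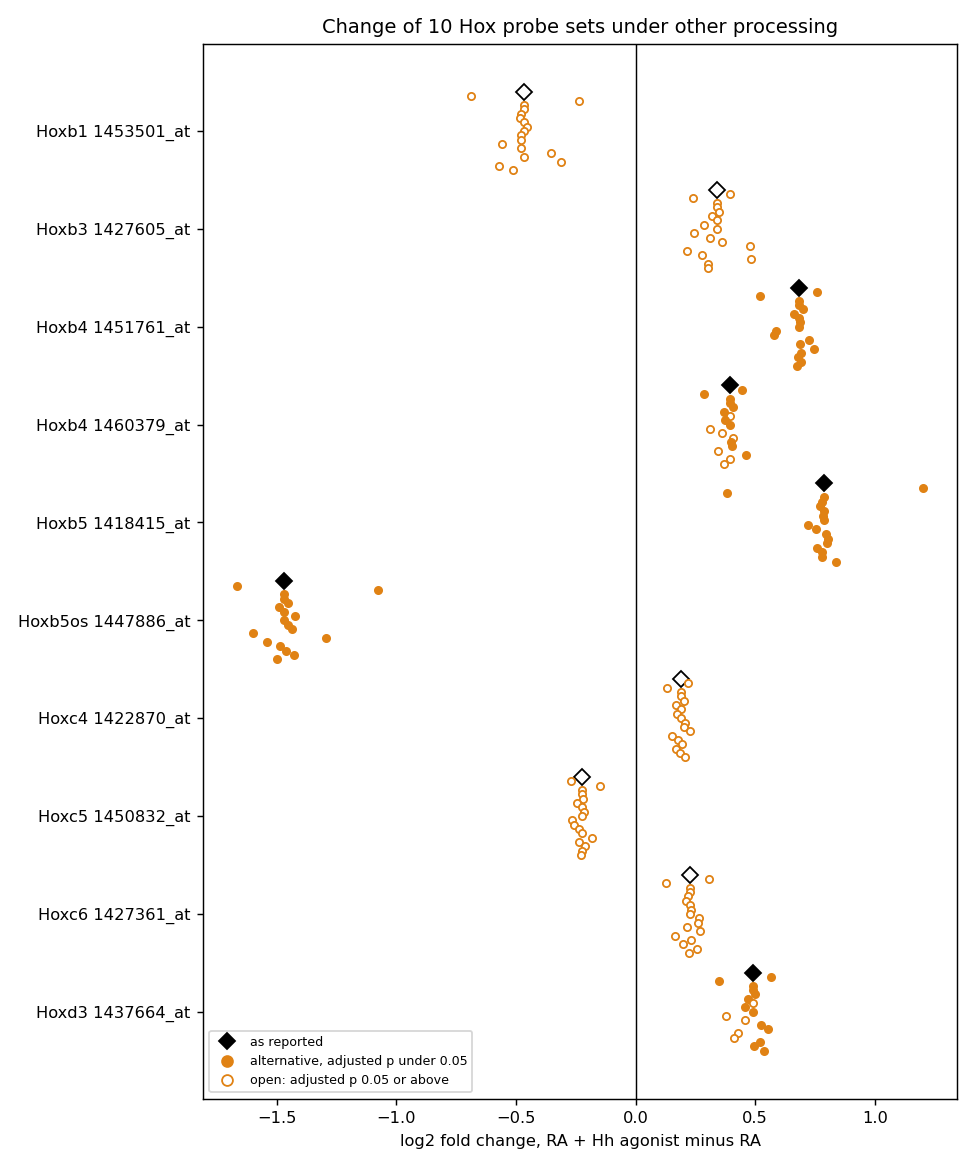
Log2 fold change (horizontal axis) of 10 Hox probe sets as reported (diamonds) and under each alternative of processing or with 1 array left out (circles). Filled symbols have an adjusted p under 0.05. Hoxb5os, Hoxb5 and the brighter Hoxb4 probe set are filled throughout, while Hoxd3 and the dimmer Hoxb4 probe set are filled in 13 and 11 of 18 alternatives.

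Genes that work with or upstream of the clusters were read by their brightest probe set. Among all 13675 genes tested that way 2.18% were called, a share at which short lists often hold no call. None of 8 tested TALE homeodomain cofactors (the Meis, Pbx and Pknox families, which bind DNA with Hox proteins) and none of 26 tested Polycomb and Trithorax genes (which keep Hox clusters silent or active) was called. Of 14 tested inducers and regulators, including retinoic acid receptors, carriers and enzymes and Cdx1, 1 rose and 2 fell. Cdx2 and Cdx4, which with Cdx1 activate trunk Hox genes, were below the filter. Cyp26a1, the enzyme that degrades retinoic acid, gave 73.9, 75.1, 79.3 and 71.0 with the agonist and 148, 149, 134 and 168 with retinoic acid alone (log2 fold change -0.87, SE 0.086, adjusted p = 5.49e-06). The agonist arrays were all lower. Crabp2, a retinoic acid carrier, fell by 0.62 (adjusted p = 1.25e-05), and its relative Crabp1 rose by 0.34 (adjusted p = 0.0327). The Crabp1 call was lost with arrays centred on their median, without the intensity trend, on the second day alone, and on leaving out agonist replicate 6, 7 or 8, or retinoic acid replicate 1, 2 or 3. Of 18 tested genes listed as lying near the clusters, Cbx1, a heterochromatin protein gene, fell by 0.32 on the log2 scale (adjusted p = 0.00920).

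Cell type markers moved alongside the Hox changes in part. Of 7 tested markers of young neurons 6 rose, and their summed intensity was 1873 to 2011 with the agonist against 628 to 698 with retinoic acid alone. Of 7 pluripotency markers 2 fell, with sums of 980 to 1152 with the agonist against 1042 to 1406 with retinoic acid. Of hindbrain markers 1 of 4 tested (Phox2a) rose, with sums of 298 to 359 with the agonist against 248 to 276 with retinoic acid. Of kidney and lateral mesoderm markers 1 of 6 (Isl1) rose, with 513 to 537 with the agonist against 390.4 to 420.4 with retinoic acid. Of endoderm markers 1 of 5 (Foxa2) rose, with 496 to 581 with the agonist against 179 to 203 with retinoic acid. In these 3 lists, and in that of young neurons, the sums of the groups did not overlap. Without the called genes the sums overlapped in all 4. That overlap is no separate evidence, since the genes left out were chosen for differing in these data. For young neurons only 1 marker, Dcx, was left. Foxa2, which also marks the floor plate of the neural tube, had 398 ± 39.6 with the agonist against 55.1 ± 1.48 with retinoic acid, and the other endoderm markers summed to 133 to 146 with the agonist against 125 to 149 with retinoic acid. Isl1, which also marks motor neurons, had 117 ± 5.16 with the agonist against 16.4 ± 2.30 with retinoic acid, and the rest of its list summed to 391 to 417 with the agonist against 377 to 401 with retinoic acid. Without Phox2a, a gene of hindbrain motor and noradrenergic neurons, the sums of the hindbrain markers barely overlapped. They were 267.5 to 308 with the agonist against 235 to 268.3 with retinoic acid. None passed of the tested markers of forebrain and midbrain (2 tested), caudal axis (5), paraxial and limb mesoderm (6), neural crest (3) and blood (4), and the sums of these lists overlapped between the groups. Forebrain and midbrain sums were 220.1 to 284 with the agonist against 254 to 296 with retinoic acid, and caudal axis sums 253 to 319 with the agonist against 242 to 320.2 with retinoic acid. Mesoderm sums were 418 to 448 with the agonist against 350.2 to 452 with retinoic acid. For neural crest they were 130.4 to 181 with the agonist against 132 to 151 with retinoic acid, and for blood 316 to 337 with the agonist against 281 to 321 with retinoic acid. No marker was at 0 on all arrays. The part of these shifts in the Hox results was not tested. Neural progenitor markers were present in both groups, with sums of 799.7 to 886 with the agonist and 796 to 925 with retinoic acid, and 1 of 6 tested (Fabp7) rose. Gli1, of which the line carries tagged copies, had 21.2 ± 3.72 with the agonist and 19.2 ± 1.24 with retinoic acid (adjusted p = 0.874). Detection of the tagged form by this probe set was not tested.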

How the data were processed

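Total RNA of 8 samples was measured on 1-colour Affymetrix arrays, with groups taken from the sample titles. The table the authors deposited holds linear intensity values, nearly level between arrays, with their summarisation and normalization not given in the sources used here. Values were used as log2(intensity + 16) without further scaling, after removal of 64 control probe sets. The 27022 probe sets with a mean above the 40th percentile were tested with limma 3.58.1 in R 4.3.3 (lmFit, eBayes with an intensity trend, two-sided), and p-values were adjusted by Benjamini-Hochberg over all of them. The model was tested on simulated data. RefSeq identifiers were matched for 34741 of 34945 single-gene probe sets. A gene was represented by its brightest probe set, chosen without regard to group. Per-array values were given for members called, with an unadjusted p under 0.05 or with a log2 change of at least 0.4. Of the lists, called genes and Gli1 were named, and marker genes after their values were seen. Exact permutation tests used scipy 1.17.1. Alternatives were 1 or 64 added, no filter or the 60th percentile, quantile normalization, median centring, no trend, array weights, the hybridisation day (per the file headers) as a block or the second day alone, averaging over each gene's probe sets, and each array left out. The paralog pairs, the first-day values and the marker sums without called genes were added after seeing the data. The members and lists were chosen with earlier results of these data known.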

Additional observations from a re-analysis of the deposited data

Results flagged for a closer look

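Within each group of 4 arrays, 1 array was checked for lying far from the other 3, over 56 groups of the 28 tested probe sets, and 3 stood out. Chance alone gives about 1 in 20, and 3 of 56 is close to that share. The brighter Hoxb3 probe set was 82.1 in agonist replicate 6, against 126 to 135 in the other agonist arrays, and the dimmer one was 59.4 there, against 62.6 to 63.0. The dimmer Hoxb4 probe set was 87.5 in retinoic acid replicate 1, against 96.3 to 98.1 in the other retinoic acid arrays.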

How the results depend on the processing

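No member changed direction under the alternatives among the 10 whose values were recomputed. Of the 4 member probe sets that rose, 2 were called without the intensity trend and 2 on the second hybridisation day alone, and 2 to 4 when an array was left out, with 2 without retinoic acid replicate 1 and 2 without agonist replicate 5. The 1 that fell was called throughout. Over all probe sets, 308 rose and 198 fell; 197 and 67 did so without the trend, 189 and 74 on the second day alone, and 84 to 318 fell with 1 array left out, the lowest count being without agonist replicate 6, followed by 85 without retinoic acid replicate 2 and 101 without agonist replicate 8, and the highest without retinoic acid replicate 3. It was 129 without agonist replicate 5 and 121 without retinoic acid replicate 4. The count of listed regulators that rose, 1 (Crabp1), was 0 with arrays centred on their median, 0 without the trend, 0 on the second day alone, and 0 to 1 with 1 array left out. The difference between the changes of Hoxb5 and Hoxb5os was 2.10 to 2.39 with 1 array left out, each with an exact permutation p of 0.0571, the smallest that 3 against 4 arrays allow. The cause of these shifts was not tested. Dim probe sets limit what can be said of the trunk and tail genes. Hoxb5 was too dim for the filter at the 60th percentile. No paired analysis was possible because the groups share no replicate numbers.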

Other observations

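Some Hox transcripts were measured by probe sets that name more than 1 gene, or lie on the opposite strand or below the filter. Of the 2 probe sets that name both Hoxd4 and Hoxd3, 1 had 45.9 ± 11.2 with the agonist and 61.2 ± 3.46 with retinoic acid (log2 fold change -0.33, limma adjusted p = 0.228), a sign opposite to that of the Hoxd3 probe set. The other ran from 34.4 to 55.0 with the agonist and from 32.5 to 40.2 with retinoic acid (adjusted p = 0.638). The probe set naming Hoxb8 and Hoxb7 had 8.51 ± 1.96 with the agonist and 8.66 ± 4.31 with retinoic acid.

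Hoxc8, a trunk gene below the filter, gave 2.66 ± 2.00 with the agonist and 9.09 ± 2.27 with retinoic acid (adjusted p = 0.230 without the filter). The opposite-strand transcripts Hoxa11os and Hoxd3os1 had 2 probe sets each. The brighter Hoxd3os1 one, the single one tested, had 14.7 ± 8.16 with the agonist and 19.3 ± 8.37 with retinoic acid (adjusted p = 0.740). The brighter Hoxa11os one ran from 5.47 to 12.1 with the agonist and from 11.4 to 15.01 with retinoic acid. These probe sets were chosen after their values were seen.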
